A study of Mus musculus with 24 samples.

Results

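The 5 microRNA genes whose probe sets fell after 30 minutes of ischemia in mouse left ventricle were Mir23b, Mir27b and Mir24-1, which lie side by side on chromosome 13, Mir126a on chromosome 2 and Mir30e on chromosome 4. They were picked for that fall on these same arrays, so their fall is a description and carries no test. They are 5 of 306 genes with a microRNA symbol, called microRNA genes below, among 18820 genes tested. The 306 include the microRNA host genes Mir100hg, Mir17hg and Mir99ahg. Each gene has 1 probe set, and its level is a log2 intensity that the authors normalized by RMA (robust multi-array average). The 24 arrays hold RNA of the left ventricle of male mice of the strain labelled BL6C57, with 1 mouse per array and 3 mice in each of 8 groups. *Per2*-/- mice, labelled Per2 KO, lack the circadian clock gene Per2, and wildtype mice are their controls. In each genotype 3 procedures were set against controls without ischemia, which the labels call both untreated and sham operated. I30 stands for ischemia of 30 minutes, taken with no reflow, and IP0 for ischemic preconditioning, in which occlusion and reflow of 5 minutes each were repeated for 4 cycles. In I30R60 hearts the 30 minutes of ischemia were followed by reflow for 60 minutes. All mice were anesthetized and ventilated, and all were adult and studied at 1 time of day. The comparisons ask whether a gene fell with ischemia, whether it was back after reperfusion and whether loss of Per2 changed this.

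MicroRNAs are short RNAs that lower the output of messenger RNAs with a matching site. A long primary transcript is cut by Drosha in the nucleus to a hairpin, Dicer cuts the hairpin to a duplex, and 1 strand is loaded into an Argonaute protein, where the bases next to its 5′ end, the seed, do most of the pairing. miR-126 is made in endothelial cells from a gene inside Egfl7, and is known for keeping vessels responsive to vascular growth factor. The miR-23, miR-27 and miR-24 families are made from shared primary transcripts and act in endothelium and heart muscle, and the miR-30 family is abundant in heart muscle. A probe set on this kind of array does not tell the primary transcript, the hairpin and the mature microRNA apart, so that the values below are levels of a gene's RNA and not of its mature product.

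The annotation used here has no entry for miR-23b-3p and miR-126a-5p, so these arms and any seeds they share with relatives are not shown. The mature sequences it lists show the other arms of each gene and which relatives share their seeds. The seed, the bases 2 to 8, is given in capitals (RefSeq, build GRCm38.p6, 5′ to 3′).
miR-23b-5p: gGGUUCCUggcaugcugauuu
miR-27b-5p: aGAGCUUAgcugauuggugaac
miR-27b-3p: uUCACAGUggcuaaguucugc
miR-24-1-5p: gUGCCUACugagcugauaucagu
miR-24-3p: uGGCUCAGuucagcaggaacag
miR-126a-3p: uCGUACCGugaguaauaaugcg
miR-30e-5p: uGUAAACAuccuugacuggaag
miR-30e-3p: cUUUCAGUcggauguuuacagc
Arms of relatives with the same seeds, from genes with probe sets of their own, are shown for comparison.
miR-24-2-5p: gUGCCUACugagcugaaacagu
miR-27a-3p: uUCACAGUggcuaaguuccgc
miR-30a-5p: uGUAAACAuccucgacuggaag
miR-30c-5p: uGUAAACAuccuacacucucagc
miR-30a-3p: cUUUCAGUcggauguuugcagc
miR-27b-3p and miR-27a-3p have the seed UCACAGU in common, and miR-30e-5p, miR-30a-5p and miR-30c-5p the seed GUAAACA. miR-24-1-5p and miR-24-2-5p share UGCCUAC, and miR-30e-3p and miR-30a-3p share UUUCAGU. miR-24-3p is made from both Mir24-1 and Mir24-2, so that equal mature RNAs come from these genes.

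The hairpins of Mir24-1 and Mir24-2 are shown because Mir24-1 was the gene whose later change passed the test while Mir24-2 was not called, with the mature arms in capitals.
Mir24-1: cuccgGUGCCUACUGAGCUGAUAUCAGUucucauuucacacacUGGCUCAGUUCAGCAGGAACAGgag
Mir24-2: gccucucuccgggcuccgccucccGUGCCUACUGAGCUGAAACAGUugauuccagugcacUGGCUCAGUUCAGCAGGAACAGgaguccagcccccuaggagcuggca
The longest run of bases common to both hairpins is 28, which covers the 3′ arm. For Mir23b with Mir23a and for Mir27b with Mir27a it is 20, and for Mir30e with Mir30a it is 18. The probe sequences were not used here, and whether a probe set also picks up RNA of the relative was not tested.

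Mir23b (chr13:63300484-63300557), Mir27b (chr13:63300712-63300784) and Mir24-1 (chr13:63301208-63301275) are on the plus strand and span 792 bases in all, within Aopep, a gene of an aminopeptidase on the same strand. Their paralogs Mir23a, Mir27a and Mir24-2 span 404 bases on chromosome 8. Mir126a (chr2:26591357-26591429) lies on the plus strand within Egfl7, which encodes a protein secreted by endothelium. Mir30e (chr4:120772606-120772697) lies on the minus strand within Nfyc, a subunit of the transcription factor NF-Y, and Mir30c-1 lies in the same gene, 2983 bases away. The annotation used here does not give exons, so that exonic and intronic places are not stated. Mir3074-1 and Mir126b lie opposite Mir24-1 and Mir126a on the other strand and were not among the genes tested.

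The arrays differed in features that go with groups or single arrays. The interquartile range of all log2 values ran over 3.85 to 3.98 on the *Per2*-/- I30 arrays and over 3.76 to 3.87 on the wildtype ones, against 3.95 to 4.11 on all other arrays, so that every I30 array but replicate 1 of *Per2*-/- lay below the rest. The mean of 5 lung epithelium markers ran over 3.05 to 3.42 on the *Per2*-/- I30 arrays and over 3.67 to 5.11 on the wildtype I30 arrays, against 2.90 to 3.36 in *Per2*-/- sham hearts and 2.73 to 2.83 in wildtype sham hearts, and 4 of the 5 were called higher in wildtype I30 hearts, with Sftpc higher by 2.73 log2 units. The mean of 5 neutrophil markers ran over 4.07 to 4.26 after I30 and 5.13 to 5.78 after I30R60 in *Per2*-/- hearts, against 3.69 to 4.03 in sham hearts, and over 4.44 to 5.65 after I30 and 4.77 to 5.99 after I30R60 in the wildtype, against 4.30 to 4.49 in sham hearts, and 4 of the 5 were called higher after I30R60 in *Per2*-/- hearts. The atrial light chain Myl7 was above 5 on 4 arrays, replicate 3 of *Per2*-/- IP0, replicate 3 of *Per2*-/- sham and replicates 1 and 2 of wildtype sham. The mean of 8 heart muscle markers was 12.67 to 12.83 on all arrays, those with high Myl7 included, so that it does not check the left ventricle label. The Per2 probe set, the check of the genotype label, had mean values of 5.09 in *Per2*-/- and 6.21 in wildtype I30 hearts, and 5.66 in *Per2*-/- and 5.79 in wildtype sham hearts, and 5.48 in *Per2*-/- and 5.11 in wildtype IP0 hearts. The genotypes overlapped in sham, IP0 and I30R60 hearts and were apart in I30 hearts, and whether the probes lie in the deleted part of the gene is not known here, so that this check does not settle the genotype labels. The part of these features in the results below was not tested.

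The 3 genes of chromosome 13 were low after ischemia and high after reperfusion. Mir23b had log2 values of 5.71, 5.32 and 6.94 in *Per2*-/- I30 hearts, 6.34, 6.76 and 6.59 after IP0, 7.46, 7.64 and 7.24 after I30R60, and 7.44, 6.62 and 6.67 in *Per2*-/- sham hearts. In wildtype hearts it had 5.02, 4.98 and 6.48 after I30, 6.13, 6.42 and 6.28 after IP0, 7.0, 7.81 and 7.16 after I30R60, and 6.94, 7.12 and 7.08 in sham hearts. In both genotypes replicate 3 of I30 was the high one, and in *Per2*-/- hearts it lay within the range of sham. The wildtype I30 and IP0 values were all below the wildtype sham values, whereas the I30R60 and sham values overlapped in both genotypes.

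Mir27b had log2 values of 3.58, 2.77 and 5.26 in *Per2*-/- I30 hearts, 4.01, 4.56 and 5.18 after IP0, 5.80, 5.99 and 5.67 after I30R60, and 6.04, 5.38 and 5.27 in *Per2*-/- sham hearts. The wildtype values were 2.26, 3.13 and 4.96 after I30, 4.61, 4.76 and 5.04 after IP0, 5.59, 6.33 and 5.64 after I30R60, and 5.56, 5.13 and 5.92 in sham hearts. The I30 and IP0 values were all below the sham values in both genotypes, narrowly in replicate 3 of I30. The lowest value, 2.26 in wildtype I30 replicate 1, was above only 10.4% of all probe sets of that array, and the files give no detection calls to say whether it is above background.

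Mir24-1 had log2 values of 3.19, 2.78 and 4.23 in *Per2*-/- I30 hearts, 4.15, 4.52 and 3.99 after IP0, 5.46, 5.51 and 5.56 after I30R60, and 5.25, 4.71 and 4.50 in *Per2*-/- sham hearts. In the wildtype, Mir24-1 had 2.81, 2.95 and 3.45 after I30, 3.84, 4.38 and 3.90 after IP0, 5.23, 5.69 and 5.22 after I30R60, and 4.70, 4.97 and 5.30 in sham hearts. All I30 values were below all sham values in both genotypes, and in *Per2*-/- hearts all I30R60 values were above all sham values. Its values after I30 were above 22.7% to 47.4% of the probe sets of the array.

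**Figure D1:**
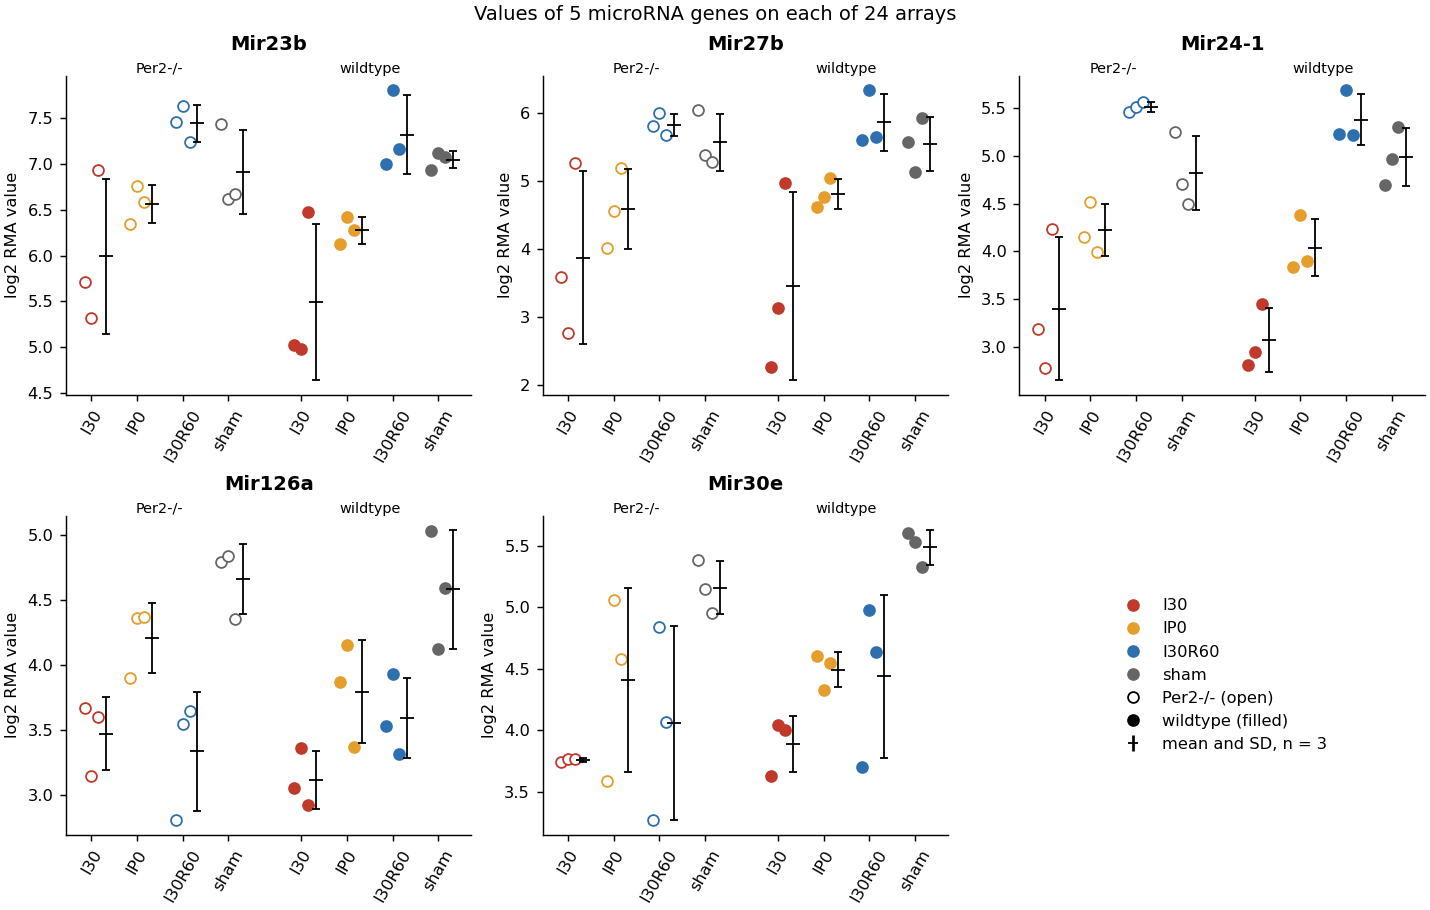
Log2 RMA values of the 5 microRNA genes on the 24 arrays, with *Per2*-/- hearts as open and wildtype hearts as filled circles, 1 circle for each mouse, and the mean and SD of 3 mice beside each group. Mir23b, Mir27b and Mir24-1 are lowest in I30 hearts and highest in I30R60 hearts, whereas Mir126a and Mir30e are highest in sham hearts.

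Mir126a and Mir30e were low after ischemia and low again after reperfusion. Mir126a had log2 values of 3.67, 3.15 and 3.60 in *Per2*-/- I30 hearts, 3.90, 4.36 and 4.37 after IP0, 2.81, 3.55 and 3.65 after I30R60, and 4.79, 4.84 and 4.35 in *Per2*-/- sham hearts. In the wildtype, Mir126a had 3.06, 3.36 and 2.93 after I30, 3.87, 4.15 and 3.37 after IP0, 3.53, 3.93 and 3.32 after I30R60, and 5.03, 4.12 and 4.59 in sham hearts. The I30 and the I30R60 values were all below the sham values in both genotypes, whereas the IP0 values overlapped with sham.

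Mir30e had log2 values of 3.74, 3.77 and 3.77 in *Per2*-/- I30 hearts, 3.59, 5.06 and 4.58 after IP0, 3.27, 4.84 and 4.07 after I30R60, and 5.38, 5.15 and 4.95 in *Per2*-/- sham hearts. The wildtype values of Mir30e were 3.63, 4.04 and 4.00 after I30, 4.60, 4.33 and 4.55 after IP0, 3.70, 4.98 and 4.64 after I30R60, and 5.6, 5.53 and 5.33 in sham hearts. The I30 and I30R60 values were below every sham value of the same genotype, and the IP0 values were so in wildtype hearts only. Hearts of a group were close together after I30, with an SD of 0.02 in *Per2*-/- and 0.23 in wildtype hearts (n = 3 each), and far apart after I30R60, with an SD of 0.79 and 0.66.

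Ordered by mean level, the groups of Mir23b, Mir27b and Mir24-1 followed 1 order, with both I30R60 groups highest, then both sham groups, both IP0 groups and both I30 groups. For Mir23b the means were 7.45 in *Per2*-/- and 7.32 in wildtype I30R60 hearts, 6.91 and 7.05 in sham hearts, 6.56 and 6.28 in IP0 hearts, and 5.99 and 5.49 in I30 hearts, *Per2*-/- before wildtype. Neighbours in this order were at most 0.50 apart, against an SD within groups of 0.49. For Mir27b they were at most 0.74 apart with an SD of 0.74, and for Mir24-1 at most 0.64 with an SD of 0.38. The groups of Mir126a had another order, with both sham groups highest, at 4.66 in *Per2*-/- and 4.58 in wildtype hearts, then IP0, and the I30 and I30R60 groups between 3.12 and 3.60 at the low end. Neighbours were at most 0.41 apart, against an SD of 0.34. Mir30e had its highest means in sham hearts too, at 5.16 in *Per2*-/- and 5.49 in wildtype hearts, and its lowest in I30 hearts, at 3.76 and 3.89. Its largest gap between neighbours, 0.67, was between *Per2*-/- sham and wildtype IP0 hearts, against an SD of 0.47. The median SD within groups over all genes tested was 0.172, so that all 5 genes varied more between mice than most genes.

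The difference of I30 from sham hearts is the value that chose the genes. In *Per2*-/- hearts the estimate was -0.92 log2 units for Mir23b (standard error 0.37), -1.69 for Mir27b (0.55), -1.42 for Mir24-1 (0.28), -1.19 for Mir126a (0.26) and -1.40 for Mir30e (0.35). In wildtype hearts it was -1.55, -2.09, -1.92, -1.47 and -1.60 with the same standard errors, which are 2.93-, 4.24-, 3.78-, 2.76- and 3.03-fold lower levels. All 3 I30 values lay below all 3 sham values for 4 of the 5 genes in *Per2*-/- hearts, Mir23b being the exception, and for 5 of 5 in wildtype hearts, where 7.86% and 12.8% of all genes tested did so. The estimates of the difference in response between the genotypes were 0.20 to 0.64 log2 units, with standard errors of 0.36 to 0.78. Single arrays moved these estimates. Without replicate 3 of I30 the estimates for Mir23b, Mir27b and Mir24-1 were -1.39, -2.39 and -1.84 in *Per2*-/- hearts, and those for Mir23b and Mir27b were -2.04 and -2.84 in wildtype hearts. Without replicate 2 of *Per2*-/- I30 the estimate for Mir23b was -0.58.

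Among the 306 microRNA genes the 5 held the ranks 1 to 5 by the size of the fall in wildtype hearts, in the order Mir27b, Mir24-1, Mir30e, Mir23b and Mir126a. The genes just outside were Mir143 at -1.08 and Mir107 at -1.05, and the smallest fall inside was the -1.47 of Mir126a. In *Per2*-/- hearts Mir27b, Mir24-1, Mir30e and Mir126a held the first ranks and Mir23b was at rank 7, after Mir690 at -0.99 and Mir27a at -0.94.

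**Figure D2:**
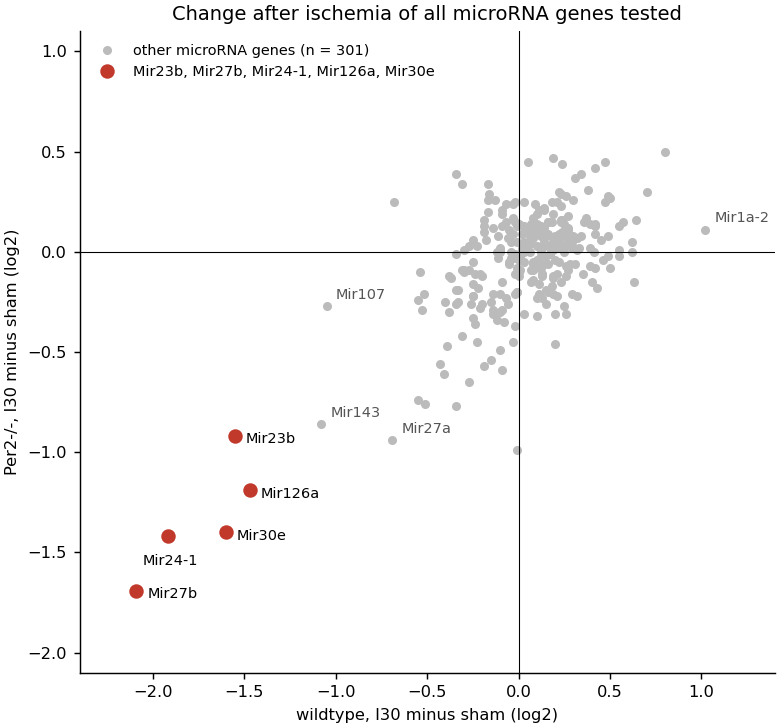
Difference of I30 from sham hearts in log2 units for each microRNA gene tested, in wildtype hearts on the horizontal and in *Per2*-/- hearts on the vertical axis. The 5 genes, in red, lie at the low end of both axes, as they were chosen to, and the 301 other microRNA genes, in grey, lie around 0 with medians of 0.01 in *Per2*-/- and 0.09 in wildtype hearts.

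The differences of IP0 and I30R60 from sham hearts rest on the same sham arrays that chose the genes, and are given as descriptions. After IP0 the estimates were negative for all 5 genes in both genotypes. They were -0.35 for Mir23b, -0.98 for Mir27b, -0.60 for Mir24-1, -0.45 for Mir126a and -0.75 for Mir30e in *Per2*-/- hearts, and -0.77, -0.74, -0.95, -0.78 and -1.0 in wildtype hearts. With 1 array left out, the estimate ran over -0.50 to -0.08 for Mir23b and -1.07 to -0.34 for Mir30e in *Per2*-/- hearts, smallest without replicate 1 of sham for Mir23b and without replicate 1 of IP0 for Mir30e, and no estimate of the 5 genes changed sign. Every IP0 value was below every sham value for Mir27b alone in *Per2*-/- hearts, and for 4 of the 5 genes, all but Mir126a, in wildtype hearts, as for 8.13% and 9.73% of all genes tested. After I30R60 the genes parted. Mir23b, Mir27b and Mir24-1 had estimates of 0.54, 0.26 and 0.69 above sham hearts in *Per2*-/- hearts and of 0.27, 0.31 and 0.39 in wildtype hearts, though Mir27b in wildtype hearts had -0.07 without the arrays with high Myl7. With 1 array left out, they ran over 0.39 to 0.80 for Mir23b, 0.11 to 0.49 for Mir27b and 0.53 to 0.90 for Mir24-1 in *Per2*-/- hearts, Mir27b being lowest without replicate 3 of sham, and over 0.03 to 0.44, 0.08 to 0.51 and 0.24 to 0.54 in wildtype hearts, where all 3 were lowest without replicate 2 of I30R60. Mir126a and Mir30e were below sham hearts, with estimates of -1.32 and -1.10 in *Per2*-/- hearts and -0.99 and -1.05 in wildtype hearts, or 2.5-, 2.15-, 1.98- and 2.07-fold lower levels. Without replicate 1 of I30R60 the estimate for Mir30e was -0.71 in *Per2*-/- and -0.68 in wildtype hearts. All I30R60 values of these 2 genes were below all sham values in both genotypes, as for 14.7% of all genes tested in *Per2*-/- and 10.9% in wildtype hearts, and those of Mir24-1 in *Per2*-/- hearts were all above sham, as for 8.32%.

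**Figure D3:**
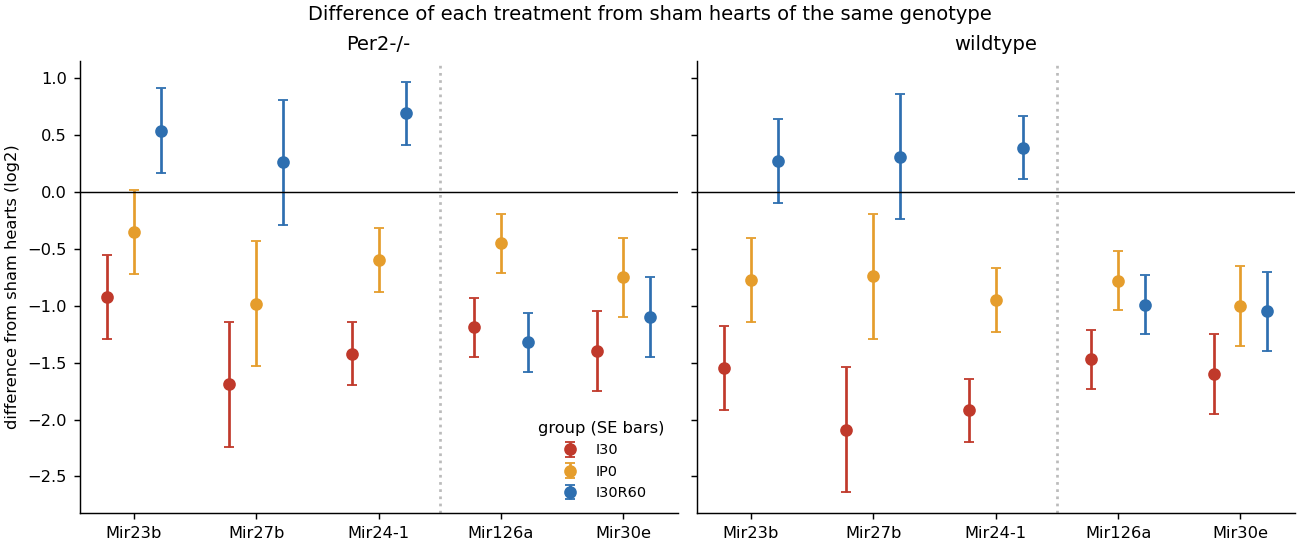
Difference of I30, IP0 and I30R60 hearts from sham hearts, within each genotype and in log2 units, with the standard error of the limma fit as bars (3 arrays in each group). Left of the dotted line are the 3 genes of chromosome 13, which lie above 0 after I30R60, and right of it Mir126a and Mir30e, which lie below 0 after all 3 treatments.

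Reperfused hearts were then set against preconditioned hearts. The means compared are of arrays that did not choose the genes. The standard errors and p also draw on the spread within the I30 and sham groups, which chose them. Mir24-1 was higher after I30R60 than after IP0 in both genotypes, by 1.29 log2 units in *Per2*-/- hearts (95% interval 0.70 to 1.88, adjusted p = 0.0161) and by 1.34 in wildtype hearts (0.75 to 1.93, adjusted p = 0.0227), or 2.45- and 2.53-fold. It was the 1 of the 5 genes called in this comparison in each genotype, where 1.65% and 0.919% of all genes tested were called higher and 2.87% and 1.24% were called in either direction. Mir23b had estimates of 0.88 in *Per2*-/- hearts (0.12 to 1.65, adjusted p = 0.230) and 1.04 in wildtype hearts (0.28 to 1.81, adjusted p = 0.203). Mir27b had estimates of 1.24 (0.09 to 2.38, adjusted p = 0.268) and 1.05 (-0.10 to 2.19, adjusted p = 0.448). Neither passed the test, though every I30R60 value of the 3 genes of chromosome 13 was above every IP0 value in both genotypes, as for 8.80% of all genes in *Per2*-/- and 7.05% in wildtype hearts. The estimates of the other 2 genes were below 0. Mir126a had estimates of -0.87 in *Per2*-/- hearts (-1.41 to -0.33, adjusted p = 0.0750) and -0.20 in wildtype hearts (-0.74 to 0.33, adjusted p = 0.825), and in *Per2*-/- hearts its I30R60 values were all below the IP0 values, as for 12.4% of all genes. Mir30e had estimates of -0.35 (-1.08 to 0.37, adjusted p = 0.688) and -0.05 (-0.78 to 0.68, adjusted p = 0.976).

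The call of Mir24-1 was lost in *Per2*-/- hearts without replicate 1 or 3 of IP0 or replicate 1 or 3 of I30R60 (adjusted p = 0.0601, 0.0703, 0.0509 and 0.0522), and in wildtype hearts without replicate 1 or 3 of IP0 or replicate 1 or 2 of I30R60 (0.107, 0.0970, 0.0638 and 0.0770), with estimates that stayed between 1.18 and 1.51 in all fits. In the fit of only the arrays compared, which leaves out the I30 and sham arrays, Mir24-1 stayed called in *Per2*-/- hearts. In wildtype hearts it was not called in that fit (adjusted p = 0.0825). Over all alternatives its adjusted p was 0.00731 to 0.151 in *Per2*-/- and 0.00923 to 0.349 in wildtype hearts.

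**Figure D4:**
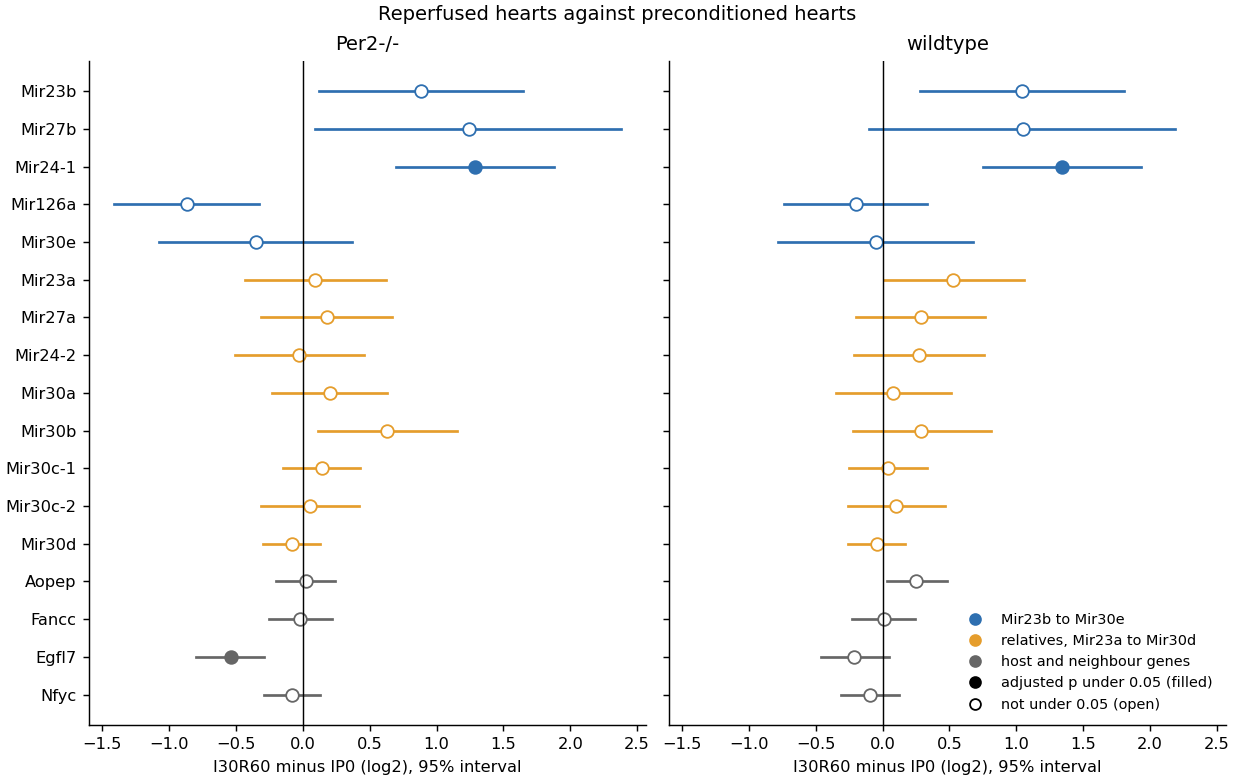
Difference of I30R60 from IP0 hearts in log2 units with its 95% interval (3 arrays against 3), in *Per2*-/- and wildtype hearts, for the 5 genes (blue), 8 relatives (orange) and the host and neighbour genes (grey), with filled circles for an adjusted p under 0.05. Mir24-1 is called in both genotypes, Egfl7 in *Per2*-/- hearts, and no relative in either.

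None of the 5 genes was called between the genotypes in the arrays that did not choose them, and 0 of 5 had an unadjusted p under 0.05 there by limma or by the methods' t-test. In IP0 hearts the difference of *Per2*-/- from wildtype hearts was between -0.22 and 0.41 log2 units, with adjusted p between 0.932 and 0.993, where 0.0797% of all genes were called. In I30R60 hearts it was between -0.38 and 0.13, with adjusted p between 0.825 and 0.995, where 0.175% were called. The 95% interval of this difference was widest for Mir27b, at -1.37 to 0.92 in IP0 and -1.18 to 1.11 in I30R60 hearts, and was narrower for Mir24-1, at -0.41 to 0.77 in IP0 and -0.46 to 0.72 in I30R60 hearts. The difference between genotypes in the step between IP0 and I30R60 was -0.67 for Mir126a (-1.43 to 0.09, adjusted p = 0.979), and -0.30 to 0.19 for the other 4 genes, with adjusted p of 0.982 to 0.994. In this test limma called 0 of all genes tested, and 912 had an unadjusted p under 0.05.

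The 3 genes of chromosome 13 were correlated over the arrays. Over the 12 IP0 and I30R60 arrays, Pearson's r was 0.95 for Mir23b and Mir24-1, 0.89 for Mir23b and Mir27b, and 0.84 for Mir27b and Mir24-1. Among 276 pairs of microRNA genes on 1 strand within 10000 bases of each other, the median r over the same arrays was 0.14, and these 3 pairs were the highest and the 3 with an r of 0.8 or more. The arrays share the treatments, so that this r takes in the difference between IP0 and I30R60. Deviations from the group means were taken over all 24 arrays, those that chose the genes included. Pearson's r was then 0.90 for Mir23b and Mir27b, 0.86 for Mir23b and Mir24-1, and 0.75 for Mir27b and Mir24-1. It was 0.47 for Mir126a and Mir30e, and 0.13 to 0.32 for pairs of a chromosome 13 gene with Mir126a or Mir30e. By rank, Spearman's rho of these deviations was lower for the first 3 pairs, at 0.81, 0.77 and 0.59. It was 0.38 for Mir126a and Mir30e, and 0.13 to 0.48 for the mixed pairs. Replicate 3 of I30 in both genotypes and replicate 2 of wildtype I30R60 were the highest of their group for all 3 genes. This did not hold in every group. Replicate 3 of *Per2*-/- IP0 was highest for Mir27b (5.18) and lowest for Mir24-1 (3.99). Replicate 2 of wildtype sham was highest for Mir23b (7.12) and lowest for Mir27b (5.13).

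**Figure D5:**
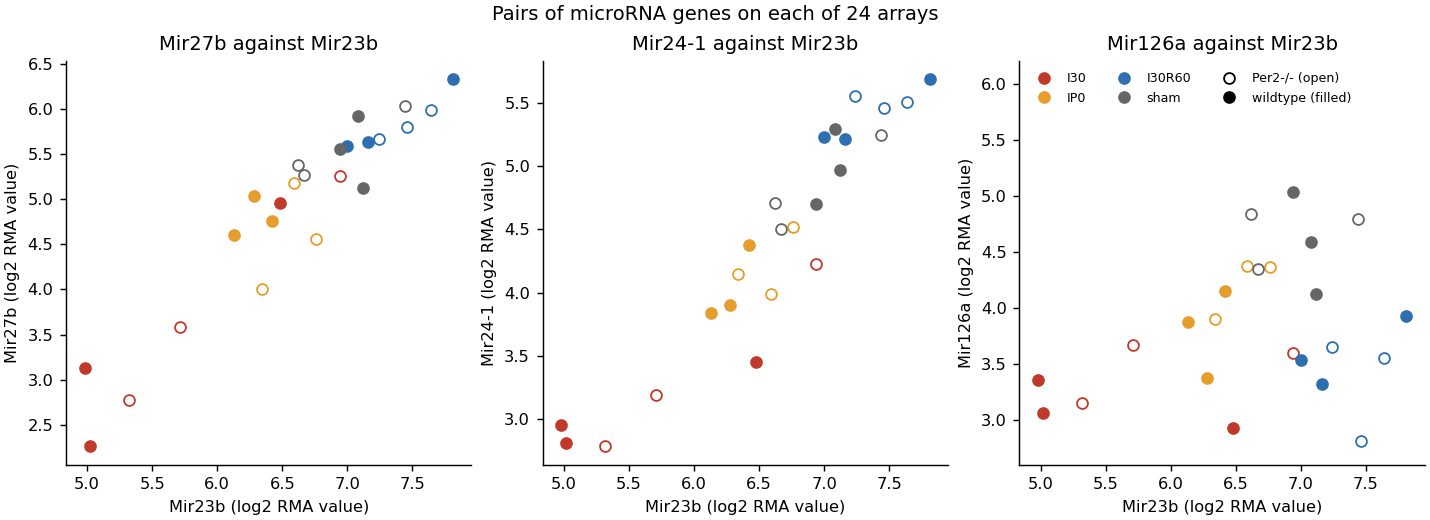
Log2 RMA values of Mir27b, Mir24-1 and Mir126a against those of Mir23b on the 24 arrays, coloured by treatment, with *Per2*-/- hearts as open and wildtype hearts as filled circles. Mir27b and Mir24-1 rise with Mir23b over all arrays (r of 0.95 and 0.95, n = 24), whereas the I30R60 values of Mir126a lie low at high Mir23b (r of 0.31 over all arrays). These r take in the I30 and sham arrays on which all 5 genes were picked for a fall.

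Of 10 relatives by seed, paralogy or position, 8 were measured, and none was called in any treatment against sham hearts in either genotype, where 0%, 0.159% and 4.79% of all genes tested were called after I30, IP0 and I30R60 in *Per2*-/- hearts and 2.39%, 0.850% and 2.47% in wildtype hearts, so that none of 8 is near those shares. Of the 8, 6 had an unadjusted p under 0.05 after I30 in *Per2*-/- and 2 in wildtype hearts. In the fit with all probe sets of a symbol averaged, 1353 of all 18820 genes had one in *Per2*-/- and 3690 in wildtype hearts. After I30 the relatives had estimates of -0.94 to 0.13 in *Per2*-/- hearts, with a median of -0.58 and 7 of 8 below 0, and of -0.69 to -0.01 in wildtype hearts, with a median of -0.33 and 8 of 8 below 0, though 6 of 8 with arrays centred on their medians and 7 of 8 with quantile normalization. The median of the 301 microRNA genes other than the 5 was 0.01 in *Per2*-/- and 0.09 in wildtype hearts, and -0.05 and -0.03 with quantile normalization. Mir27a, the paralog of Mir27b with the same seed, averaged 4.93 in *Per2*-/- I30 hearts and 5.87 in *Per2*-/- sham hearts (difference -0.94, standard error 0.23, adjusted p = 0.409), and 4.53 in wildtype I30 and 5.23 in wildtype sham hearts (-0.69, standard error 0.23, adjusted p = 0.112). Mir23a had differences of -0.76 and -0.51, Mir24-2 of -0.61 and -0.41, and Mir30a of -0.65 and -0.27, *Per2*-/- before wildtype. Mir30c-1, which lies in Nfyc beside Mir30e, had differences of -0.23 and -0.07. After I30R60 the paralogs Mir23a, Mir27a and Mir24-2 had differences from sham of 0.65, 0.46 and 0.29 in wildtype hearts. In *Per2*-/- hearts these were -0.22, -0.08 and -0.26, and none was called. Whether a gene and its relative differ in their change was not tested.

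Of the genes that hold the microRNA genes, Aopep fell after I30 in wildtype hearts, Egfl7 fell after I30R60 in *Per2*-/- hearts, and Nfyc was called in no comparison with sham hearts. Aopep averaged 5.76 ± 0.06 in *Per2*-/- I30 hearts and 5.94 ± 0.04 in *Per2*-/- sham hearts (SD, n = 3 each), a difference of -0.17 that was not called (adjusted p = 0.769). In wildtype hearts it averaged 5.49 ± 0.14 after I30 and 5.99 ± 0.13 in sham hearts, and fell by 0.50 log2 units (standard error 0.11, adjusted p = 0.0208), where 2.39% of all genes tested were called. The difference between the genotypes in this fall was 0.33 (standard error 0.15, adjusted p = 0.675). The call of Aopep was lost without replicate 1 of wildtype I30 or replicate 2 or 3 of wildtype sham (adjusted p = 0.0814, 0.0670 and 0.0681), with a range of 0.0149 to 0.269 over all alternatives. Fancc, a gene of DNA repair on the other strand, whose 3′ end lies 58 bases beyond Mir24-1, had differences of -0.08 and -0.34 after I30, and neither was called.

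Egfl7 averaged 8.31 ± 0.27 in *Per2*-/- I30R60 hearts and 9.02 ± 0.08 in *Per2*-/- sham hearts (SD, n = 3 each) and fell by 0.71 (standard error 0.12, adjusted p = 0.00129), where 4.79% of all genes tested were called. In wildtype hearts it averaged 8.54 ± 0.10 after I30R60 and 8.92 ± 0.08 in sham hearts (difference -0.39, adjusted p = 0.113). In *Per2*-/- hearts the call against sham was lost in the fit of only the arrays compared (adjusted p = 0.0638) and by the methods' t-test (0.242), over a range of 0.000155 to 0.242. Egfl7 was also lower after I30R60 than after IP0 in *Per2*-/- hearts (-0.54, adjusted p = 0.0196). That call did not pass without replicate 2 or 3 of IP0 or replicate 1 of I30R60 (adjusted p = 0.0960, 0.0743 and 0.113, and 0.00450 to 0.363 over all alternatives). After I30, when Mir126a was at its lowest in wildtype hearts, Egfl7 had differences of -0.11 in *Per2*-/- and -0.13 in wildtype hearts, and neither was called. The mean of 10 endothelium markers, Egfl7 among them, ran over 9.08 to 9.20 after I30 and 9.11 to 9.19 after sham surgery in *Per2*-/- hearts. In the wildtype it ran over 8.90 to 9.03 after I30 and 9.11 to 9.28 in sham hearts. After I30R60 it ran over 8.91 to 9.22 in *Per2*-/- and 9.01 to 9.17 in wildtype hearts. Of the 10, Kdr, a receptor of vascular growth factor, was called lower after I30 in wildtype hearts (-0.94, adjusted p = 0.0154), and Kdr and Egfl7 after I30R60 in *Per2*-/- hearts. The other markers were called in neither, with estimates of -0.53 for Cldn5 to 0.21 for Flt1 after I30 in wildtype hearts and of -0.27 for Tek to 0.26 for Flt1 after I30R60 in *Per2*-/- hearts. In a piece of tissue, fewer endothelial cells and less RNA per cell cannot be told apart. Nfyc, the gene around Mir30e, had differences of -0.29 to -0.10 from sham hearts over the 3 treatments and both genotypes, and none was called.

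The proteins that make and use microRNAs were measured by 16 genes, among them Drosha, Dgcr8, Xpo5, Dicer1 and Ago1 to Ago4. None was called after I30 or IP0 in either genotype, where 0% and 0.159% of all genes tested were called in *Per2*-/- and 2.39% and 0.850% in wildtype hearts. After I30, 1 of the 16 had an unadjusted p under 0.05 in each genotype. With probe sets averaged, 1353 of all 18820 genes had one in *Per2*-/- and 3690 in wildtype hearts. The medians of the list after I30 were -0.04 in *Per2*-/- and -0.07 in wildtype hearts. Ddx17 and Ddx5, RNA helicases that work with Drosha, were the called genes after I30R60. Ddx17 fell by 0.32 in *Per2*-/- hearts (adjusted p = 0.00547) and by 0.30 in wildtype hearts (adjusted p = 0.0145). Ddx5 rose by 0.40 in wildtype hearts (adjusted p = 0.0260), where 2.47% of all genes tested were called. In *Per2*-/- hearts the call of Ddx17 was lost with each array centred on its median (-0.24, adjusted p = 0.0750), in the fit of only the arrays compared (0.113) and by the methods' t-test (0.0600), over a range of 0.00082 to 0.113. In wildtype hearts the call of Ddx17 was lost without replicate 2 of I30R60 or any 1 sham array (adjusted p of 0.0511 to 0.0571), and that of Ddx5 without replicate 1 or 3 of I30R60 or replicate 1 or 3 of sham (0.0898 to 0.159). Over all alternatives the adjusted p was 0.00257 to 0.298 for Ddx17 and 0.00286 to 0.348 for Ddx5 in wildtype hearts.

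Of genes widely cited as targets of these microRNAs, 13 were measured, and none was called after I30, when the 5 genes were low and 0% and 2.39% of all genes tested were called in *Per2*-/- and wildtype hearts. An unadjusted p under 0.05 was found for 0 of the 13 in *Per2*-/- and 3 in wildtype hearts. With probe sets averaged, 1353 of all 18820 genes had one in *Per2*-/- and 3690 in wildtype hearts. The 3 in wildtype hearts were Vcam1, higher by 1.21 (adjusted p = 0.0547), and Fzd7 (-0.44, adjusted p = 0.108) and Spry2 (-0.50, adjusted p = 0.0814), which were lower. In *Per2*-/- hearts the difference of Vcam1 after I30 was -0.14 (adjusted p = 0.949). The medians of the list after I30 were 0.00 in *Per2*-/- and -0.07 in wildtype hearts. After I30R60, 3 of the 13 were called in *Per2*-/- and 1 in wildtype hearts, where 4.79% and 2.47% of all genes tested were called. The secreted matrix protein gene Ccn2, a cited target of miR-30, was called in both genotypes and averaged 11.08 in *Per2*-/- I30R60 and 10.13 in *Per2*-/- sham hearts (0.95 higher, adjusted p = 0.0141), and 10.96 in wildtype I30R60 and 9.88 in wildtype sham hearts (1.08 higher, adjusted p = 0.00850). It was not called without replicate 1 of *Per2*-/- I30R60, replicate 3 of *Per2*-/- sham or replicate 3 of wildtype sham (adjusted p = 0.0812, 0.0954 and 0.0675). Vcam1, an adhesion molecule of endothelium and a cited target of miR-126, averaged 8.04 in *Per2*-/- I30R60 and 6.76 in *Per2*-/- sham hearts (1.28 higher, adjusted p = 0.0263), and 7.36 in wildtype I30R60 and 6.23 in wildtype sham hearts (1.13 higher, adjusted p = 0.0778). Pik3r2, a regulatory subunit of PI3 kinase and a cited target of miR-126, fell by 0.56 in *Per2*-/- I30R60 hearts (adjusted p = 0.0212). Vcam1 was not called in *Per2*-/- hearts without replicate 1 or 2 of I30R60 or any 1 sham array (0.0623 to 0.114), and Pik3r2 without replicate 1 of I30R60 or replicate 3 of sham (0.131 and 0.0999). Over all alternatives the adjusted p reached 0.372 for Ccn2, 0.264 for Vcam1 and 0.276 for Pik3r2.

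Few of the 301 other microRNA genes were called after I30. None was called in *Per2*-/- hearts, where 0% of all genes tested were called and 22 of the 301 had an unadjusted p under 0.05. By the methods' t-test 23 of them had one in *Per2*-/- hearts, as had 1250 of all 18820 genes tested. In wildtype hearts 4 were called, 1.33% of them, against 2.39% of all genes tested. Mir107, which lies in a gene of pantothenate kinase, was lower (-1.05, adjusted p = 0.0105), and Mir1a-2, a heart muscle microRNA gene (1.02, adjusted p = 0.0164), Mir676 (0.70, adjusted p = 0.0479) and Mir384 (0.42, adjusted p = 0.0427) were higher. Mir143 (-1.08), Mir490 (-0.68) and Mir674 (-0.55) completed the 5 largest falls with Mir107 and Mir27a, and Mir1a-1 (0.80), Mir652 (0.64) and Mir338 (0.63) the 5 largest rises with Mir1a-2 and Mir676. Mir1a-2 was not called without replicate 1 or 2 of wildtype sham, and Mir676 and Mir384 were lost when any of 5 and any of 4 of the 6 arrays was left out.

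By likeness over the 24 arrays, the 10 genes that followed the mean of the 5 microRNA genes most closely were Fabp5, Ripor1, Aopep, Nmt1, Rnaseh2b, P2ry6, Serpinb6a, Rab3gap2, Tcp11l2 and Cd28. Pearson's r was 0.84 for Fabp5, which encodes a fatty acid binding protein, 0.78 for Ripor1, and 0.76 to 0.77 for the others. Aopep, the host gene of the chromosome 13 group, was at rank 3 with 0.77, whereas Egfl7 had 0.04 and Nfyc 0.21. Fabp5 averaged 6.91 in *Per2*-/- I30 and 7.24 in *Per2*-/- sham hearts, and 6.70 in wildtype I30 and 7.37 in wildtype sham hearts. For the 3 genes of chromosome 13 alone, r with Aopep was 0.79 and with Egfl7 -0.30. The points share arrays and treatments, so that these values describe a common course over the groups.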

How the data were processed

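The values analysed are log2 intensities of 35555 probe sets on 24 Affymetrix Mouse Gene 1.1 ST arrays (named 2.1 ST in the series' design text), deposited without detection calls after RMA normalization in Partek, as the authors' methods have it. Labels name Trizol for RNA extraction, the study's methods an RNeasy kit. The platform annotation gave 1 symbol for 21218 probe sets, several for 1881 and none for 12456. The first kind was used, the highest by mean over all arrays for the 1386 genes with more than 1, which gave 18820 genes. The comparisons are contrasts of 1 limma fit (version 3.58.1, R 4.3.3), with a mean for each of the 8 groups, 16 residual degrees of freedom and Benjamini-Hochberg adjustment over all genes; the threshold of a call was an adjusted p of 0.05. The precision is limited by 3 arrays per group. The median standard error of a comparison was 0.137. The fit was tested on simulated data. Tables and figures were made in Python 3.11.15 with pandas 2.3.3, numpy 2.4.6 and matplotlib 3.10.9.

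The 5 genes and all lists were chosen with earlier results of these data known, and the split into the chromosome 13 group and the other genes was made after seeing the values. No p is given for the 5 genes where I30 or sham arrays, which chose them, are among the groups compared. The spread within those arrays still enters the limma p of the other comparisons. Named besides them are the listed relatives, host, processing and target genes that were called, of the other microRNA genes the 5 largest falls and rises after I30 in wildtype hearts, and the 10 genes most like the mean of the 5; Mir384, Mir690, Kdr, Sftpc, Fancc and uncalled list members were added after their values were seen. Sequences and positions are those of RefSeq, GRCm38.p6. Alternatives covered scaling, normalization, moderation, array weights, arrays in the fit, a filter on low values, the choice of probe set, a replicate block, the methods' t-test, arrays with high Myl7 and each array left out in turn.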

Additional observations from a re-analysis of the deposited data

How the results depend on the processing

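Of the 5 microRNA genes, 1 was called between I30R60 and IP0 in each genotype. In *Per2*-/- hearts this count was 2 with moderation by trend and robust fitting and 2 when only the arrays compared were fitted, and 0 for genes with a mean at or above the median of all values, without the arrays with high Myl7 and by the methods' t-test. In wildtype hearts it was 0 in the fit of only the arrays compared, with that filter and by the methods' t-test. The filter leaves Mir24-1 out, since its mean of 4.43 is under the median of 4.44. With 1 array left out the count was 0 to 1 in both genotypes. In *Per2*-/- hearts Mir23b passed in the fit of only the arrays compared (adjusted p = 0.0455), and Mir126a with trend and robust fitting (0.0473). The methods' t-test gave 4 of the 5 genes in *Per2*-/- and 3 in wildtype hearts at an unadjusted p under 0.05, and 0 after adjustment. Of all 18820 genes tested it gave 2506 and 1934 at an unadjusted p under 0.05, and 2 and 0 after adjustment. No gene of the 5 was called between genotypes under any alternative, nor by the test of the difference between genotypes. Estimates near 0 changed sign. With array weights Mir30e had 0.03 between I30R60 and IP0 in wildtype hearts and 0.10 between genotypes after IP0. The difference between genotypes after I30R60 was 0.03 for Mir27b with each array centred on its median and 0.02 with quantile normalization, and the genotype difference of the step between IP0 and I30R60 was 0.00 and 0.03 for Mir24-1. With 1 array left out, the step of Mir30e ran over -0.77 to 0.04 in *Per2*-/- and -0.32 to 0.32 in wildtype hearts. The difference between genotypes then ran over -0.52 to 0.07 for Mir27b and -0.40 to 0.33 for Mir30e after IP0, and over -0.04 to 0.37 for Mir23b, -0.16 to 0.21 for Mir27b, -0.42 to 0.01 for Mir126a and -0.77 to 0.01 for Mir30e after I30R60. The genotype difference of the step ran over -0.32 to 0.08 for Mir23b, -0.10 to 0.49 for Mir27b, -0.22 to 0.11 for Mir24-1 and -0.72 to 0.09 for Mir30e.

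Of the 301 other microRNA genes, 4 were called after I30 in wildtype hearts, against 20 with centred arrays, 1 with the filter, and 0 without high Myl7, with only the arrays compared and by the t-test (1 to 7 with 1 array left out). After IP0 the count was 2 in *Per2*-/- hearts, against 1 without high Myl7, and 0 with the filter, with only the arrays compared and by the t-test (1 with any 1 array left out). In wildtype hearts it was 5 after IP0, against 1 with the filter, 3 without high Myl7, 1 with only the arrays compared and 0 by the t-test (2 to 4 with 1 array left out). After I30R60 it was 4 in *Per2*-/- hearts, against 8 with centred arrays, 8 with array weights and 0 by the t-test (3 to 6), and 3 in wildtype hearts, against 5 with trend and robust fitting, 5 with array weights, 1 with the filter, 1 with only the arrays compared and 0 by the t-test (1 to 6).

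Whether replicate numbers pair the mice is not settled. The mean correlation of deviations was 0.0203 for equal and -0.0101 for unequal numbers. Every equal-number correlation was over 0.1 in 1 of 28 pairs of groups, yet 19 of the 24 arrays correlated best with an array of their own number. With the replicate number as a block, 1 gene of the 5 was called between I30R60 and IP0 in each genotype, as without it, and 1 other microRNA gene after IP0 in *Per2*-/- hearts.

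Over all genes the number and the split of the calls moved with the scaling and the filter. After I30 in wildtype hearts 449 were called, 50.3% of them higher, against 939 and 89.4% with centred arrays and 83 and 61.4% with quantile normalization, 489 and 38.2% with trend and robust fitting, 375 and 12.8% with the filter, 9 with only the arrays compared, 3 without high Myl7 and 0 by the t-test. After I30R60 the calls in *Per2*-/- hearts numbered 901 (58.2% higher), with 81.8% higher when centred, and 310, 470 and 3 under the other 3 alternatives, and 464 in wildtype hearts, with 191, 129 and 2. After IP0 they were 30 in *Per2*-/- hearts (73.3% higher, 90.9% when centred), with 1, 8 and 0, and 160 in wildtype hearts (61.2%, 74.7% when centred), with 31, 45 and 1. Between I30R60 and IP0 they were 541 in *Per2*-/- hearts (57.3%, 73.9% when centred), with 169, 271 and 2, and 234 in wildtype hearts, with 5 by only the arrays compared and 0 by the t-test. Trend and robust fitting gave 366 in the last comparison, 302 for IP0 in wildtype hearts, 51 for IP0 in *Per2*-/- hearts, and 62 in place of 33 between genotypes after I30R60, where 39.4% were higher and 68.0% with centred arrays. Between genotypes after I30R60 the filter gave 58, only the arrays compared 7 and the t-test 0, and after IP0 the 15 calls were 5 with only the arrays compared, 5 without high Myl7 and 0 by the t-test. The filter gave 406 in place of 234 between I30R60 and IP0 in wildtype hearts, and 317 after IP0 in wildtype hearts, and array weights gave 339 and 49 for IP0 in wildtype and *Per2*-/- hearts.

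With 3 arrays a group the spread between mice sets the precision, and low values have no detection call.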
